A study of Mus musculus with 24 samples.

Results

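The genes of MHC class I antigen presentation were followed through donor T cells before and after an allogeneic transplantation. They are 10 genes chosen by name: the class I heavy chains H2-K1 and H2-D1, the light chain B2m, the peptide transporter genes Tap1 and Tap2, the loading factor Tapbp, the immunoproteasome subunits Psmb8, Psmb9 and Psmb10, and the transcriptional regulator Nlrc5. They are 10 of the 35817 gene symbols measured, and each of them was expressed in every library and passed the filter on low values, with 561 counts or more (Nlrc5) per library. RNA sequencing covered 24 libraries of mouse splenic T cells in 8 groups of 3, with CD4+ and CD8+ T cells sorted from each mouse.

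Cat-Tg donors carried, as heterozygotes, a transgene for a human β-catenin that lacks its N-terminal part; it was cloned in the vector p1017, which holds the proximal promoter of Lck, a gene of T cells, made in FVB mice and crossed back to C57BL/6, and WT donors were C57BL/6 mice. By the study's methods the mice were 8 to 12 weeks old. The Cat-Tg CD8 pre-tx, WT CD8 pre-tx, Cat-Tg CD4 pre-tx and WT CD4 pre-tx groups were T cells taken fresh from the spleen of such mice. The Cat-Tg CD8 post-tx, WT CD8 post-tx, Cat-Tg CD4 post-tx and WT CD4 post-tx groups were donor T cells recovered on day 7 from the spleen of BALB/c hosts that had been lethally irradiated, after injection of CD4+ and CD8+ T cells in equal parts with WT bone marrow depleted of T cells. Donor cells were recognised after transplantation by an antibody to H-2Kb, the protein that H2-K1 encodes in these donors, so cells with little of that protein could be missed by the sort, and levels of H2-K1 post-tx stand beside that choice. Which founder line of the transgene was used is not stated. The sample titles give genotype, cell type, time and replicate but no batch. A difference of batch between the genotypes, if there was one, could not be told apart from genotype.

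MHC class I molecules show peptides from inside the cell to CD8+ T cells. The proteasome cuts proteins into peptides, and 3 immunoproteasome subunits, encoded by Psmb8, Psmb9 and Psmb10, can take the place of the constitutive subunits encoded by Psmb5, Psmb6 and Psmb7. The transporter formed by TAP1 and TAP2 moves peptides into the endoplasmic reticulum, tapasin (Tapbp) holds the empty class I molecule at the transporter, and a heavy chain leaves for the surface with β2-microglobulin (B2m) and a peptide. Interferon gamma raises most of these genes, and NLRC5 acts with DNA-bound factors at class I promoters. In an allogeneic transplantation across an MHC mismatch, class I molecules are themselves major targets of T cells.

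Of the 10 genes, 7 lie on chromosome 17 in GRCm38 (GENCODE M21): H2-K1 at chr17:33996017-34000347 on the minus strand, Tapbp at chr17:33915899-33929292, Psmb9 at chr17:34181987-34187764 on the minus strand, Tap1 at chr17:34187553-34197225, Psmb8 at chr17:34197721-34201454, Tap2 at chr17:34203527-34216321 and H2-D1 at chr17:35262730-35267499. B2m lies at chr2:122147686-122153083, Psmb10 at chr8:105935735-105938444 on the minus strand and Nlrc5 at chr8:94434356-94527272, and strands not given are plus. The first bases of Tap1 and Psmb9 overlap on opposite strands. The stretches before the start of H2-K1 (250 bases, chr17:34000348-34000597, minus strand) and of B2m (chr2:122147437-122147685, plus strand) are shown from RefSeq (GRCm38.p6), as those of a heavy chain and of the light chain it pairs with. Capitals mark, in H2-K1, GGGGATTCC, TTTCACTTC (the other strand of GAANNGAAA), TGACG and ATTGG (the other strand of CCAAT), and in B2m GAAACTGAA (a match of GAAANNGAA), TGACG and ATTGG.
H2-K1: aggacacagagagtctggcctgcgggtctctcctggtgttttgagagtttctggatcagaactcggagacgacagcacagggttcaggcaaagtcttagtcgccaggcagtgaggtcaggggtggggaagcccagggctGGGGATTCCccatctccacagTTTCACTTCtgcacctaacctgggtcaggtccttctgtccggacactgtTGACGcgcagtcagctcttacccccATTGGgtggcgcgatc
B2m: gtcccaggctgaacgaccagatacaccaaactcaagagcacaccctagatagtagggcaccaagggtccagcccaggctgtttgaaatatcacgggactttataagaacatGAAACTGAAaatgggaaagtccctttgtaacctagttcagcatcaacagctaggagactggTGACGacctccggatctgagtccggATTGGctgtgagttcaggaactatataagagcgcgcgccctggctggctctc

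The letters searched on both strands of the 250 bases before the start were the interferon-response-like GAAANNGAA, the interferon-gamma-site-like TTCNNNGAA, CCAAT, the cAMP-response-like TGACG and the NF-κB-like GGGANTTCC, and a RefSeq sequence was found for 8 of the 10 genes (Tap2 and Nlrc5 had none). TGACG lay in 5 of the 8 (H2-K1, H2-D1, B2m, Tap1 and Psmb9) against 17.8% of 32851 mouse promoters. By the RefSeq starts used in this search, Tap1 and Psmb9 share the region between them, whereas their GENCODE M21 positions overlap. CCAAT lay in 6 of the 8 against 33.8%, GAAANNGAA in 1 (B2m) against 7.13%, TTCNNNGAA, which reads the same on both strands, in 1 (Psmb8) against 7.02%, and GGGANTTCC in none against 1.43%. CCAAT and TGACG begin 222 and 86 bases before Tap1 and, on the other strand, 8 and 144 bases before Psmb9. By this equal spacing each appears to be 1 site counted for both genes. After the sequences were seen, 2 further forms were searched: GAANNGAAA was in H2-K1 and H2-D1 and in 6.31% of promoters, and GGGGATTCC was in the same 2 genes and in 0.213% of promoters. The 30 bases that hold both in H2-K1 (chr17:34000429-34000458, minus strand) and in H2-D1 (chr17:35262923-35262952, plus strand) and the 30 bases around TGACG in 4 genes, at chr17:34000372-34000401 (minus strand) for H2-K1, chr17:35262980-35263009 for H2-D1, chr2:122147596-122147625 for B2m and chr17:34187457-34187486 for Tap1, are set side by side with matches in capitals; a match is a description of letters and not a bound site.
H2-K1: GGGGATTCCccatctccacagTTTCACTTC
H2-D1: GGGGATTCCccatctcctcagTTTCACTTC
H2-K1 around TGACG: gtccggacactgtTGACGcgcagtcagctc
H2-D1 around TGACG: gccgggacactgaTGACGcgctggcaggtc
B2m around TGACG: gctaggagactggTGACGacctccggatct
Tap1 around TGACG: gcccagagacaggTGACGacagagggtcct

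The class I heavy chains are near copies of each other, so reads can fit several of them, and Kallisto divides such reads by a model. Over 828 aligned coding bases, H2-K1 (ENSMUST00000025181) and H2-D1 (ENSMUST00000172785) were 91.5% identical with 70 mismatches. A run of 91 bases is shared letter for letter, coding bases 738 to 828 of H2-K1 and 747 to 837 of H2-D1, and reads inside it cannot be assigned to either gene.
Shared run of H2-K1 and H2-D1: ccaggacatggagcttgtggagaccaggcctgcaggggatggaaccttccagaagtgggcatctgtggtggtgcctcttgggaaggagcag
The genes can be told apart in stretches such as the 90 coding bases from 480 to 569 of H2-K1 and from 489 to 578 of H2-D1, where capitals mark the 17 mismatches.
H2-K1: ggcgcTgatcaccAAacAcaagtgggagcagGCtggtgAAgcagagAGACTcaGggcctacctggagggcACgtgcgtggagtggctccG
H2-D1: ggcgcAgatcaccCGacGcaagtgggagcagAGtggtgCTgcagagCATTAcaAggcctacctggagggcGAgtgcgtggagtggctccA
Of the 31-base words of H2-K1, 23.3% occurred in another gene (16.9% in H2-D1), and of those of H2-D1 27.7% did (12.9% in H2-K1, 9.94% in H2-Q7). The levels of H2-K1 and H2-D1 are therefore uncertain by their shared reads. B2m, Psmb8, Psmb10 and Nlrc5 shared no such word in the 1 transcript of each that was searched. Psmb9 shared none in its searched transcript, which held 61.2% of its counts, but its other transcripts share words with Tap1. The searched transcript of H2-D1 held 48.2% of its counts, beside 51.8% on another. Tap1 shared 182 words with its antisense neighbour Psmb9, and the library kit keeps no strand, so reads there cannot be told apart; the share was 7.73% of Tap1, 1.74% of Tap2 and 3.28% of Tapbp for all words found in another gene.

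Total estimated counts ranged from 11135713 to 50519825 (median 27062440), at which 3 counts correspond to 0.0594 to 0.269 CPM (counts scaled to library size); such a floor covers counting error only. CPM is scaled here by TMM over the 24 libraries, whereas each log2 fold change comes from a fit scaled within its own libraries, so a ratio of printed CPM can differ from the fitted fold. Replicates are separate mice by the study's methods. The 6 libraries that carry the labels WT CD8 pre-tx or WT CD4 pre-tx went against their cell type labels: Cd4 stood at 81.1 to 107 CPM in the first and 70.7 to 141 CPM in the second, and Cd8a at 93.0 to 149 and 134 to 155 CPM. In the other libraries Cd4 was 0.643 to 5.09 CPM in CD8 and 201 to 1060 CPM in CD4, and Cd8a 379 to 916 CPM in CD8 and 0.95 to 8.79 CPM in CD4. In those 6 libraries the 14 B cell markers summed to 11774 to 15745 CPM against 503 to 3368 CPM elsewhere, the 7 class II genes to 23380 to 53880 CPM against 114 to 7239 CPM, and the 12 T cell markers to 1975 to 3540 CPM against 5427 to 16411 CPM. No gene of these lists was at 0 in every library of a group. The 6 are called the libraries labelled WT pre-tx, a comparison that contains them could not be computed without them, and their part in it was not tested. In bulk RNA, fewer cells of a type and less RNA per cell cannot be told apart.

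The level of the class I presentation genes varied between groups and between libraries of a group. Compared per length, in TPM, the median level over the 24 libraries was 5370 for H2-D1, 3550 for H2-K1, 1760 for B2m and 1380 for Psmb8. It was 383 for Psmb9, 382 for Tapbp, 371 for Psmb10, 176 for Tap1, 159 for Tap2 and 17 for Nlrc5. The regulator thus stood at the bottom of the order and the surface molecule at the top. By group mean of CPM, Cat-Tg CD8 post-tx was the highest group for H2-K1, H2-D1, B2m, Tap1, Tap2 and Nlrc5, WT CD8 post-tx for the 3 immunoproteasome subunits and Cat-Tg CD4 post-tx for Tapbp. Neighbouring groups in that order mostly overlapped, with 0 of 7 neighbouring pairs apart for H2-K1 and 1 or 2 of 7 for each of the others.

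**Figure D1:**
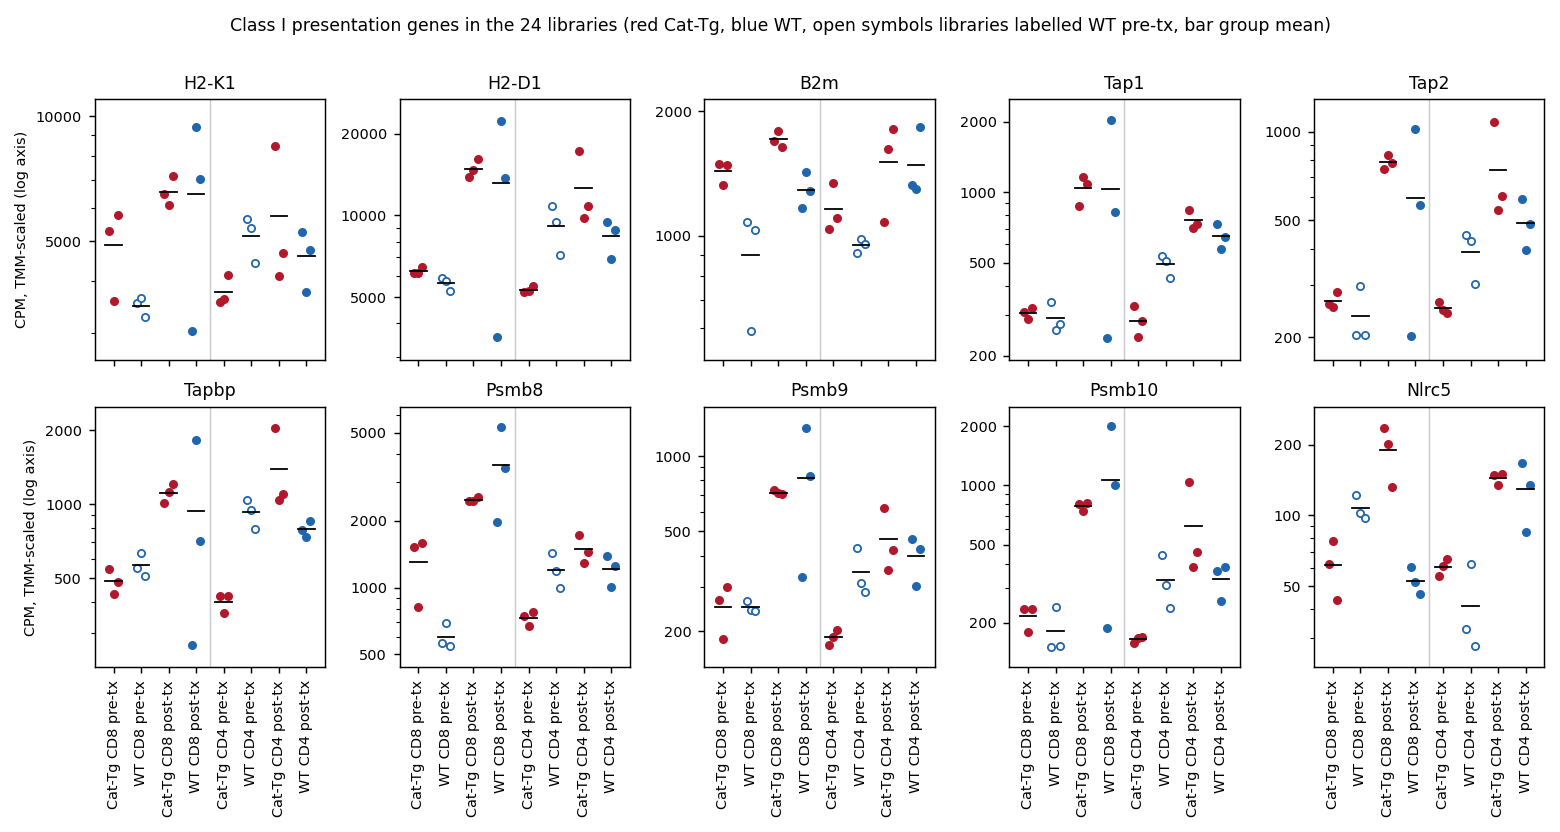
TMM-scaled CPM of each class I presentation gene (log axis) in the 3 libraries of the 8 groups, red for Cat-Tg and blue for WT, with open symbols for the libraries labelled WT pre-tx and a bar at the group mean. Replicate 1 of WT CD8 post-tx lies below its 2 partners for 9 of the 10 genes, all but Nlrc5.

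The 3 libraries of WT CD8 post-tx stood far apart. The summed CPM of the 10 genes was 11039, 46589 and 29575 there, against 28889, 29782 and 32251 in Cat-Tg CD8 post-tx. It was 34294, 20002 and 22229 in Cat-Tg CD4 post-tx, where the first library held the lowest total count (11135713) and 27035 CPM of red cell transcripts, and 20544, 15347 and 19614 in WT CD4 post-tx. Pre-tx the sum was 16125, 13282 and 16959 in Cat-Tg CD8, 11989, 12158 and 12879 in Cat-Tg CD4, 12681, 12434 and 11584 in the CD8 libraries labelled WT, and 21704, 19589 and 15636 in the CD4 libraries labelled WT. The sums of Cat-Tg libraries post-tx thus all lay above those of Cat-Tg libraries pre-tx in both cell types, while the WT sums overlapped between the times.

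The first question was how the genes changed between fresh donor cells and day 7 in the recipient. In Cat-Tg CD4 T cells 8 of the 10 rose and none fell, all but H2-K1 and B2m; of all 17227 genes tested 45.2% passed an adjusted p of 0.05 and 16.2% passed in the upward direction. In Cat-Tg CD8 T cells 5 rose (Tap1, Tap2, Psmb9, Psmb10 and Nlrc5) against 13.9% of 15960 genes that passed and 8.72% that rose. Against the libraries labelled WT pre-tx, 6 were higher in WT CD8 post-tx (H2-D1, Tap1, Tap2, Psmb8, Psmb9 and Psmb10) beside 23.6% and 13.2%. In WT CD4 post-tx 2 were higher (B2m and Nlrc5) beside 24.3% and 14.7%. The median log2 fold change of the 10 genes was 0.95, 1.40, 1.42 and 0.25 in these 4 comparisons, beside −0.38, −0.26, −0.23 and −0.13 over all genes tested. All 3 post-tx libraries lay above all 3 pre-tx libraries for 8 of the 10 genes in Cat-Tg CD4 (26.7% of all genes), 10 in Cat-Tg CD8 (24.1%), 3 in WT CD8 (12.9%) and 3 in WT CD4 (20.7%). In the WT comparisons of time T cell markers were also higher post-tx, 10 of 12 in CD8 and 12 of 12 in CD4. B cell markers were lower, 14 of 14 in each. A rise over time in WT, here and below, is thus a difference from the libraries labelled WT pre-tx. It is not shown to be a change within T cells.

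These counts depended on which libraries shared the fit. In Cat-Tg CD8 only Nlrc5 passed once the libraries labelled WT pre-tx were left out of the fit of 12, whereas 8 genes passed with only the 6 libraries compared. Leaving out any single Cat-Tg CD8 library left 0 to 2 (0 without pre-tx replicate 3 or post-tx replicate 1). In WT CD8, 9 passed without post-tx replicate 1 and only Psmb8, Psmb9 and Psmb10 without post-tx replicate 2, and those 3 also without pre-tx replicate 3. In Cat-Tg CD4 the same 8 passed without the libraries labelled WT pre-tx and without post-tx replicate 1. Other cells' markers moved too: from Cat-Tg CD4 pre-tx to post-tx the 12 myeloid markers went from 1208 to 1829 CPM to 2920 to 4557 CPM, the 7 red cell markers from 1332 to 2120 CPM to 4525 to 27035 CPM and the 12 T cell markers from 7145 to 8386 CPM to 5427 to 7126 CPM, and their part in the result was not tested. In Cat-Tg CD8 the B cell markers went from 1065 to 2492 CPM to 769 to 799 CPM and the myeloid markers from 457 to 2443 CPM to 326 to 674 CPM. These myeloid sums overlap and the markers were mixed. Of the 12, 2 passed upward and 3 downward, with a median log2 fold change of 0.70.

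**Figure D2:**
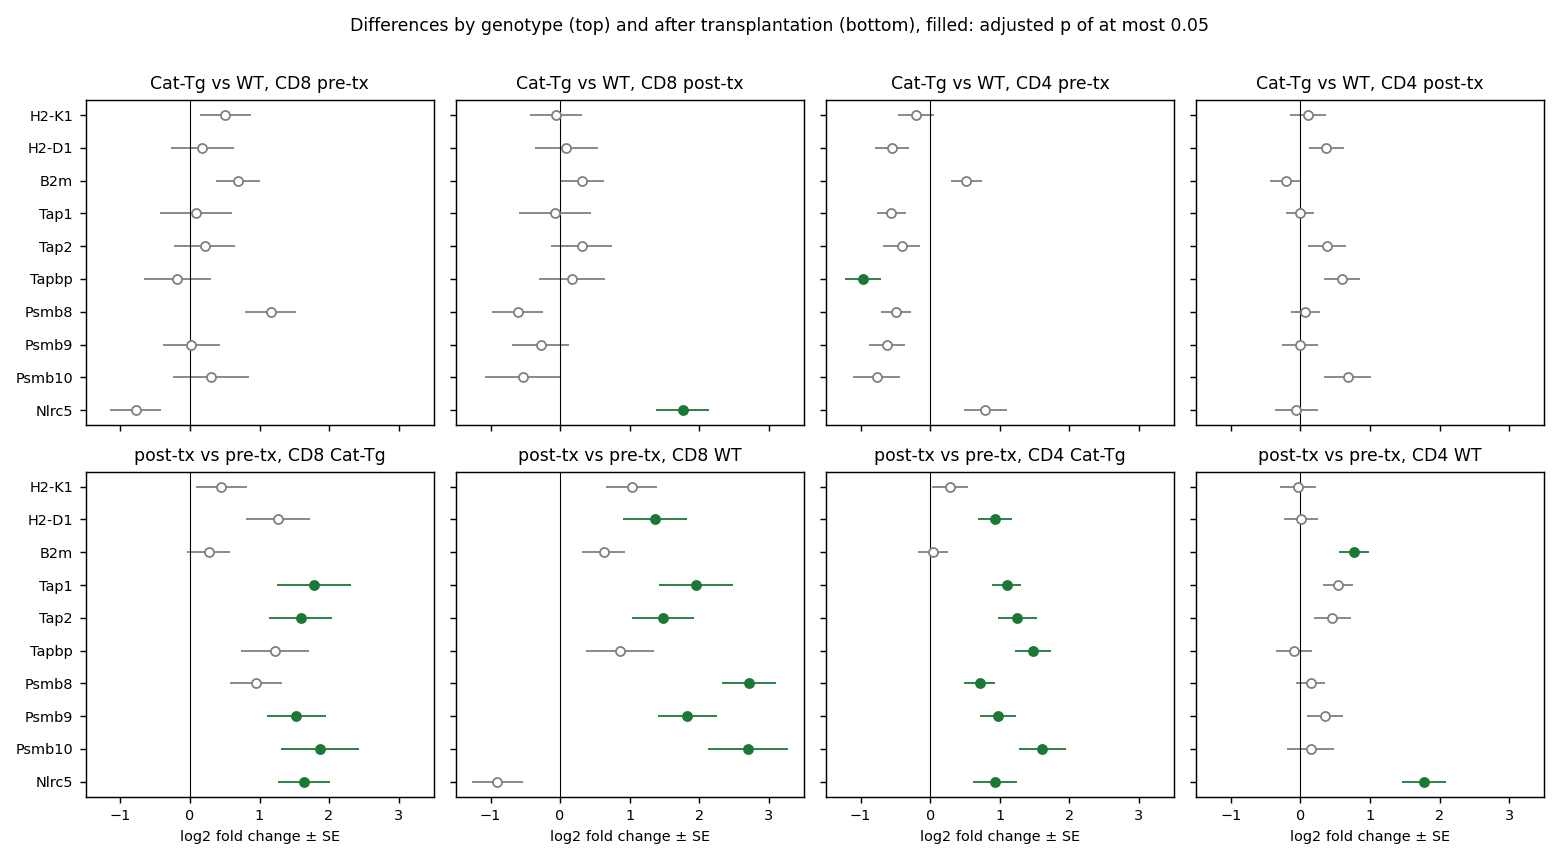
Log2 fold change with its standard error for each gene, Cat-Tg against WT in the top row and post-tx against pre-tx in the bottom row, with filled green symbols for an adjusted p of at most 0.05. Filled symbols number 5, 6, 8 and 2 in the bottom row and 0, 1 (Nlrc5), 1 (Tapbp) and 0 in the top row.

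Among the heavy chains, H2-D1 rose in Cat-Tg CD4 and WT CD8, and H2-K1 passed in none of the 4 comparisons of time; the difference between the 2 genes was not tested. In Cat-Tg CD8 T cells H2-D1 stood at 6154, 6147 and 6433 CPM pre-tx and 13847, 14659 and 16151 CPM post-tx, and the libraries did not overlap. The log2 fold change of 1.27 (SE 0.46) had an adjusted p of 0.0711 and did not pass. In Cat-Tg CD4 it stood at 5237, 5256 and 5479 CPM pre-tx and 17251, 9800 and 10832 CPM post-tx (log2 fold change 0.93, SE 0.25, adjusted p = 0.00761), which with a correction for GC content and length was 0.38 (adjusted p = 0.065). In WT CD8 it went from 5870, 5741 and 5252 CPM in the libraries labelled pre-tx to 3571, 22197 and 13798 CPM (log2 fold change 1.36, SE 0.46, adjusted p = 0.0416), with 1 post-tx library below every pre-tx library. That call for H2-D1 was lost in 11 of 17 alternatives, among them library totals (0.21, adjusted p = 0.7) and the fit without WT CD8 post-tx replicate 2 (0.55, adjusted p = 0.371). H2-K1 stood at 5287, 3576 and 5785 CPM in Cat-Tg CD8 pre-tx and 6475, 6106 and 7166 CPM post-tx (log2 fold change 0.45, SE 0.37, adjusted p = 0.387). In WT CD8 it was 3537, 3640 and 3279 CPM in the libraries labelled pre-tx and 3039, 9423 and 7043 CPM post-tx (adjusted p = 0.0573). H2-K1, H2-D1 and the 16 other listed class I heavy chain genes were summed as 1 gene, which removes the division of reads among them. The sum passed in WT CD8 and Cat-Tg CD4 and not in Cat-Tg CD8 or WT CD4. A sum of H2-K1 and H2-D1 alone was not fitted. In WT CD4 neither heavy chain differed beyond its spread, with log2 fold changes of −0.03 (H2-K1, SE 0.26) and 0.01 (H2-D1, SE 0.25).

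The split of the counts between the 18 listed heavy chain genes moved with time as well. H2-K1 and H2-D1 together took 67.2% to 85.3% of the counts on class I heavy chains. In Cat-Tg CD8 the share of H2-D1 was 38.7%, 47.9% and 38.8% pre-tx and 56.3%, 58.5% and 57.6% post-tx, and that of H2-K1 33.2%, 27.8% and 34.9% pre-tx and 26.3%, 24.4% and 25.5% post-tx. In Cat-Tg CD4 H2-D1 took 46.7%, 46.6% and 44.9% pre-tx and 53.1%, 54.8% and 55.3% post-tx. H2-D1 gained share in both Cat-Tg cell types with no overlap of libraries. Post-tx the nonclassical Qa-2 gene H2-Q7 took 16.3%, 17.7% and 17.5% in WT CD8 against 7.65%, 6.93% and 7.58% in Cat-Tg CD8. These shares rest on Kallisto's division of shared reads, and they were not tested.

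**Figure D3:**
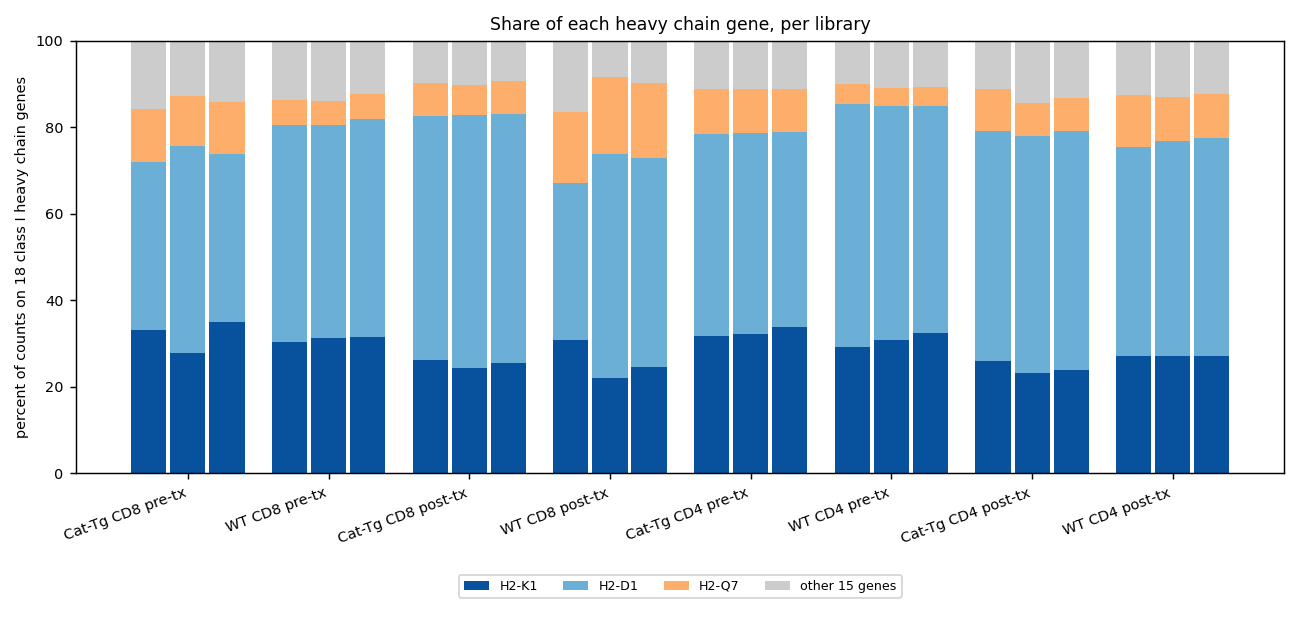
Percent of the estimated counts on 18 class I heavy chain genes that fell on H2-K1, H2-D1, H2-Q7 and the other 15, one bar per library (replicates 1 to 3 from left to right in each group). The orange H2-Q7 part is widest in WT CD8 post-tx (16.3% to 17.7%) and narrowest in the pre-tx CD4 libraries labelled WT (4.15% to 4.61%).

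B2m, the light chain that class I molecules share, was higher in WT CD4 post-tx than in the libraries labelled pre-tx. It did not pass in the other comparisons of time. In Cat-Tg CD8 it stood at 1492, 1329 and 1480 CPM pre-tx and 1698, 1793 and 1641 CPM post-tx (log2 fold change 0.27, SE 0.31, adjusted p = 0.546). In Cat-Tg CD4 it was 1038, 1346 and 1105 CPM pre-tx and 1083, 1623 and 1812 CPM post-tx (log2 fold change 0.04, SE 0.22, adjusted p = 0.895). In WT CD4 it went from 911, 983 and 957 CPM in the libraries labelled pre-tx to 1324, 1295 and 1835 CPM (log2 fold change 0.77, SE 0.22, adjusted p = 0.0188). Pearson's r of B2m with the mean of the other members over the 24 libraries was 0.46, against 0.86 for H2-K1 and 0.96 for H2-D1, as a description over libraries that share groups and depth. B2m also differs in composition: its transcripts had 41.2% GC, while H2-K1, H2-D1, the TAP and tapasin genes and the 3 immunoproteasome genes had 54.1% to 58.5%, beside a median gene of 49.4%. With a correction for GC content and length B2m changed direction in several comparisons, its log2 fold change in WT CD4 was then 0.01 (adjusted p = 0.952), and it passed over time in Cat-Tg CD8 and in Cat-Tg CD4.

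The peptide transporter genes rose together in 3 of the 4 comparisons of time. Tap1 stood at 307, 289 and 321 CPM in Cat-Tg CD8 pre-tx and 877, 1164 and 1084 CPM post-tx (log2 fold change 1.78, SE 0.53, adjusted p = 0.0376). Tap2 went from 259, 253 and 284 to 746, 833 and 783 CPM (1.59, SE 0.45, adjusted p = 0.0301). Every post-tx library was above every pre-tx library for both. In Cat-Tg CD4 Tap1 went from 326, 242 and 282 to 838, 707 and 733 CPM (log2 fold change 1.1, SE 0.21, adjusted p = 0.000819), and Tap2 from 264, 248 and 242 to 1076, 542 and 603 CPM (1.25, SE 0.28, adjusted p = 0.00248). In WT CD8 Tap1 was 340, 258 and 274 CPM in the libraries labelled pre-tx and 238, 2036 and 822 CPM post-tx, where the libraries overlapped although the log2 fold change of 1.95 (SE 0.53) had an adjusted p of 0.0153. In WT CD4 Tap1 stood at 536, 507 and 431 CPM in the libraries labelled pre-tx and 730, 575 and 644 CPM post-tx, without overlap and with an adjusted p of 0.0671. Of the counts on Tap2, 80.8% fell on a transcript annotated as retaining an intron, so the gene sum is mostly not the coding form of the annotation. With GC and length corrected both calls were lost in Cat-Tg, at 0.63 (Tap1, adjusted p = 0.0999) and 0.40 (Tap2, adjusted p = 0.165) in CD8 and 0.27 (Tap1, adjusted p = 0.109) and 0.33 (Tap2, adjusted p = 0.073) in CD4. In WT CD8 library totals gave 0.77 for Tap1 and 0.31 for Tap2, with adjusted p of 0.197 and 0.553.

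Tapbp, which encodes tapasin, rose in Cat-Tg CD4 T cells from 423, 360 and 422 CPM to 2044, 1041 and 1096 CPM (log2 fold change 1.48, SE 0.26, adjusted p = 0.000522), and over the 18 alternatives the log2 fold change ran from 0.63 (GC and length corrected) to 1.90 with an adjusted p of at most 0.00393. In Cat-Tg CD8 it was 543, 430 and 483 CPM pre-tx and 1007, 1125 and 1211 CPM post-tx, without overlap and with an adjusted p of 0.0989. In WT CD4 it stood at 1041, 945 and 792 CPM in the libraries labelled pre-tx and 784, 737 and 858 CPM post-tx (log2 fold change −0.09, SE 0.26). All 3 Cat-Tg CD4 libraries post-tx were above all 3 pre-tx, whereas the WT CD4 libraries overlapped.

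The 3 immunoproteasome genes rose over time in WT CD8 and Cat-Tg CD4 T cells, and 2 of them in Cat-Tg CD8. Psmb8 went from 563, 689 and 542 CPM in the libraries labelled pre-tx to 1979, 5312 and 3467 CPM post-tx (log2 fold change 2.71, SE 0.39, adjusted p = 0.000176), and Psmb9 from 265, 244 and 241 to 329, 1291 and 829 CPM (1.83, SE 0.42, adjusted p = 0.00515). Psmb10 went from 150, 240 and 152 to 189, 2001 and 1010 CPM (2.70, SE 0.58, adjusted p = 0.00346), with overlap of 1 library. The Psmb9 call was lost with library totals (0.70, adjusted p = 0.133) and with GC and length corrected (0.59, adjusted p = 0.0656), where Psmb8 was 1.40 and Psmb10 1.13. In Cat-Tg CD8 Psmb9 rose from 267, 186 and 299 to 729, 709 and 708 CPM (1.53, SE 0.42, adjusted p = 0.0252) and Psmb10 from 236, 180 and 235 to 806, 742 and 810 CPM (1.87, SE 0.56, adjusted p = 0.0389). Psmb8 was 1519, 815 and 1596 CPM pre-tx and 2469, 2450 and 2567 CPM post-tx, and its adjusted p was 0.0918. In Cat-Tg CD4 the 3 subunits rose by 0.71 (Psmb8, SE 0.22, adjusted p = 0.0153), 0.97 (Psmb9, SE 0.26, adjusted p = 0.00736) and 1.61 (Psmb10, SE 0.34, adjusted p = 0.00199) on the log2 scale. In WT CD4 none passed, with log2 fold changes of 0.15 to 0.35. About as many counts of Psmb8 fell on a transcript annotated with a retained intron (49.4%) as on the others, and 61.2% of those of Psmb9 fell on one annotated for nonsense-mediated decay.

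Nlrc5, the class I regulator, rose after transplantation in 3 of the 4 settings and not in WT CD8. It went from 62.3, 78.1 and 43.6 CPM to 236, 201 and 132 CPM in Cat-Tg CD8 (log2 fold change 1.64, SE 0.37, adjusted p = 0.0102), and from 55.0, 60.8 and 65.3 to 148, 135 and 150 CPM in Cat-Tg CD4 (0.93, SE 0.31, adjusted p = 0.0234). In WT CD4 it went from 32.9, 62.0 and 27.9 CPM in the libraries labelled pre-tx to 167, 84.9 and 135 CPM (1.78, SE 0.32, adjusted p = 0.000828). In WT CD8 it stood at 122, 102 and 97.7 CPM in the libraries labelled pre-tx and 60.4, 52.0 and 46.1 CPM post-tx, with every post-tx library below every pre-tx library, a log2 fold change of −0.90 (SE 0.37) and an adjusted p of 0.0893. With GC and length corrected the Nlrc5 calls were lost in Cat-Tg CD8 (0.86, adjusted p = 0.0829) and Cat-Tg CD4 (0.44, adjusted p = 0.298), the latter lost in 5 of 18 alternatives, while in WT CD4 it passed in all 17. Pearson's r of Nlrc5 with the mean of the other members over the 24 libraries was 0.31.

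The second question was whether Cat-Tg and WT T cells differed at one time. After transplantation 1 of the 10 genes differed in CD8 T cells, Nlrc5, and of all genes 1.67% passed and 1.1% were higher in Cat-Tg. Nlrc5 stood at 236, 201 and 132 CPM in Cat-Tg and 60.4, 52.0 and 46.1 CPM in WT CD8 post-tx, so every Cat-Tg library was above every WT library (log2 fold change 1.76, SE 0.38, adjusted p = 0.036). It was also apart in TPM, at 34.6, 24.4 and 18.9 in Cat-Tg against 15.1, 4.67 and 7.17 in WT. The direction held under all 18 alternatives (0.98 to 2.08), with adjusted p from 0.000663 to 0.183; the call was lost in 8 of them, among them the fit without the libraries labelled WT pre-tx (1.78, adjusted p = 0.0559), the GC and length correction (0.98, adjusted p = 0.133) and the fits without Cat-Tg CD8 post-tx replicate 1 or 2 or WT CD8 post-tx replicate 3. The main coding transcript held 91.7% of the Nlrc5 counts in Cat-Tg CD8 post-tx and 66.8% in WT CD8 post-tx, and a transcript with a retained intron 1.32% and 17.7%. Myeloid markers summed to 326 to 674 CPM in Cat-Tg and 168 to 224 CPM in WT CD8 post-tx, and red cell markers to 2947 to 4440 and 252 to 2058 CPM, and their part was not tested. The 9 other genes had log2 fold changes of −0.61 (Psmb8, SE 0.37) to 0.32 (B2m, SE 0.31) with adjusted p of 0.383 or more. For H2-K1 the 95% interval ran from −0.79 to 0.66 and for Tap1 from −1.08 to 0.94. These intervals use the normal distribution and a spread shared by all groups of CD8 libraries. A 2-fold lower level in Cat-Tg lies within the interval for Tap1 and just outside that for H2-K1. H2-K1 stood at 3039, 9423 and 7043 CPM in WT CD8 post-tx, a wider range than in the other CD8 groups that share the spread.

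In CD4 T cells post-tx none of the 10 passed in edgeR, in limma-voom or in DESeq2, while 10.2% of all genes passed, and 1 (Tapbp) had an unadjusted p under 0.05. Tapbp stood at 2044, 1041 and 1096 CPM in Cat-Tg and 784, 737 and 858 CPM in WT, without overlap (log2 fold change 0.60, SE 0.26, adjusted p = 0.162). H2-D1 was likewise apart, at 17251, 9800 and 10832 CPM against 9460, 6917 and 8837 CPM (0.37, SE 0.25, adjusted p = 0.402). Tap1 (log2 fold change of 0.00 within its SE of 0.20) and Psmb9 (0.00, SE 0.26) stood close to WT. Their 95% intervals, made the same way, ran from −0.40 to 0.40 and from −0.50 to 0.51. In these libraries 7 of 7 class II genes, 8 of 12 myeloid and 7 of 7 red cell markers were higher in Cat-Tg, with myeloid sums of 2920 to 4557 against 733 to 1137 CPM, and their part was not tested.

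Before transplantation the comparison of genotypes rests on the libraries labelled WT pre-tx. In CD8 none of the 10 passed in edgeR, limma-voom or DESeq2, against 8.97% of all genes, and 2 (B2m and Psmb8) had an unadjusted p under 0.05. Psmb8 was 1519, 815 and 1596 CPM in Cat-Tg and 563, 689 and 542 CPM in those labelled WT (log2 fold change 1.16, SE 0.37, adjusted p = 0.0657). In CD4, Tapbp was lower in Cat-Tg, at 423, 360 and 422 against 1041, 945 and 792 CPM (log2 fold change −0.97, SE 0.26, adjusted p = 0.0139), beside 20.4% of genes that passed and 7.18% that were lower in Cat-Tg. All 3 Cat-Tg libraries lay below all 3 labelled WT for 8 of the 10 genes, all but B2m and Nlrc5, which held for 20.3% of all genes, and the number that passed ranged from 0 to 6 over the alternatives. The Tapbp call was lost with the GC and length correction, in the fit of all 24 libraries and without Cat-Tg CD4 pre-tx replicate 2.

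Whether the genotypes changed differently over time was tested as an interaction. In CD8 Nlrc5 differed (interaction 2.54 on the log2 scale, SE 0.52, adjusted p = 0.00643), having risen by 1.64 in Cat-Tg beside a difference of −0.90 in WT. Psmb8 differed the other way (−1.77, SE 0.53, adjusted p = 0.0422), with 0.95 in Cat-Tg and 2.71 in WT. Of all genes 10.7% passed, 5.94% upward and 4.77% downward. In CD4 Tapbp (1.57, SE 0.37, adjusted p = 0.00745) and Psmb10 (1.46, SE 0.48, adjusted p = 0.0401) passed, both with the larger difference in Cat-Tg, beside 21.4% of all genes and 7.28% upward. All 4 values contain the libraries labelled WT pre-tx. Leaving out 1 library at a time, Psmb8 passed in 2 of 12 fits and Psmb10 in 4 of 12, while Nlrc5 and Tapbp passed in all 12. With GC and length corrected the Nlrc5 interaction was 0.68 (adjusted p = 0.391), that of Tapbp 0.53 (adjusted p = 0.107) and that of Psmb10 0.69 (adjusted p = 0.111), and all 3 calls were lost. The added test of whether the genotype difference post-tx itself differed between CD8 and CD4 passed for none of the 10 in edgeR or limma-voom and for Nlrc5 in DESeq2, against 0.629% of all genes. Nlrc5 was the 1 gene with an unadjusted p under 0.05 (1.68, SE 0.46, adjusted p = 0.0888).

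CD8 and CD4 T cells of one genotype and time were compared where the labels held. In Cat-Tg none of the 10 passed in edgeR, limma-voom or DESeq2 pre-tx (1.53% of all genes) or post-tx (6.0%), and Psmb8 was the 1 gene with an unadjusted p under 0.05 at each time, at 2469, 2450 and 2567 CPM in CD8 post-tx against 1729, 1296 and 1444 CPM in CD4 post-tx (log2 fold change 0.74, SE 0.30, adjusted p = 0.165). In WT post-tx 4 passed, against 13.1% of all genes, 5.98% higher and 7.16% lower in CD8. Psmb8 was higher in CD8 by 1.56 on the log2 scale (SE 0.31, adjusted p = 0.00116), at 1979, 5312 and 3467 against 1388, 1010 and 1252 CPM, Psmb9 by 1.04 (SE 0.35, adjusted p = 0.0485) and Psmb10 by 1.66 (SE 0.50, adjusted p = 0.0267). Nlrc5 was lower in CD8, at 60.4, 52.0 and 46.1 against 167, 84.9 and 135 CPM (−1.29, SE 0.33, adjusted p = 0.0104). CD4 and CD8 T cells came from the same mice, although the labels do not say that a replicate number names the mouse; with the replicate block 2 of the 4 passed (Psmb8 and Nlrc5), as they did without the libraries labelled WT pre-tx. None passed with only the 6 libraries compared, 8 passed without WT CD8 post-tx replicate 1, and 1 (Psmb8) without WT CD8 post-tx replicate 2 or WT CD4 post-tx replicate 1.

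The proteasome subunits that exchange with each other were also compared as ratios of TPM within each library, which need no scaling between libraries. Psmb8 to Psmb5 was 3.99, 3.73 and 3.60 in Cat-Tg CD8 post-tx and 3.14, 2.87 and 3.37 in WT CD8 post-tx, and 4.74, 5.22 and 4.79 against 3.58, 4.39 and 3.94 in CD4 post-tx. Psmb9 to Psmb6 was 0.663, 0.616 and 0.597 in Cat-Tg CD8 post-tx and 0.199, 0.382 and 0.418 in WT CD8 post-tx. In these 3 of the 12 comparisons every Cat-Tg library was above every WT library, by 0.27, 0.31 and 0.98 on the log2 scale, with an exact two-sided permutation p of 0.1 each, the smallest that 3 against 3 allows, and 0.15 after adjustment over the 12 ratio comparisons, so none could pass. The libraries were also apart in 5 others, with Cat-Tg lower in the 4 of them pre-tx (Psmb9 to Psmb6 and Psmb10 to Psmb7 in both cell types) and higher for Psmb10 to Psmb7 in CD4 post-tx. The last was 32.6, 5.18 and 4.83 in Cat-Tg and 4.71, 3.84 and 4.44 in WT, far apart only in Cat-Tg replicate 1, the library with the lowest total count. Psmb10 to Psmb7 was 6.58, 4.91 and 6.87 in Cat-Tg CD8 post-tx and 0.904, 23.7 and 7.90 in WT CD8 post-tx, an overlap of the whole Cat-Tg range. Within Cat-Tg this ratio stood at 2.47, 2.67 and 2.50 in CD8 pre-tx and at 2.07, 2.11 and 2.25 in CD4 pre-tx, below each post-tx library of its cell type, the lowest of which was 4.83 in CD4. Psmb9 to Psmb6 was likewise lower in each Cat-Tg pre-tx library of both cell types. Psmb8 to Psmb5 went the other way in Cat-Tg CD8, at 4.15, 4.56 and 4.20 pre-tx, above each post-tx library. In Cat-Tg CD4 it was 4.67, 4.55 and 3.38 pre-tx, below each post-tx library. These changes of ratio over time were not tested.

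**Figure D4:**
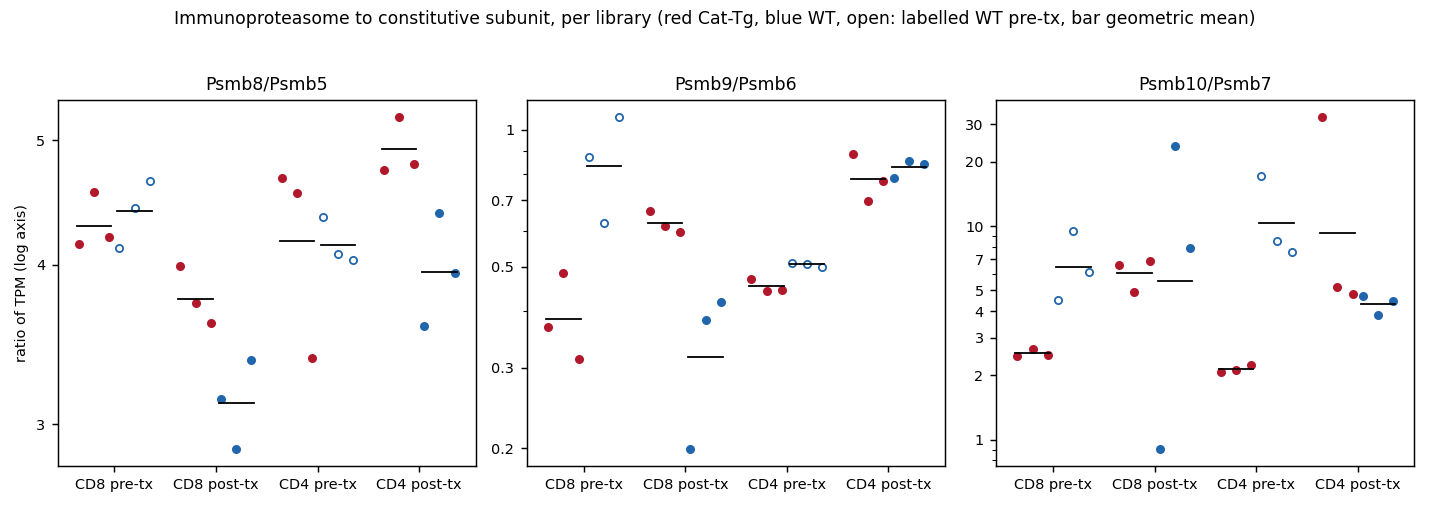
Ratio of TPM of each immunoproteasome subunit to the constitutive subunit it can replace (log axes), per library, red for Cat-Tg and blue for WT, with open symbols for the libraries labelled WT pre-tx and a bar at the geometric mean. Post-tx, Psmb8/Psmb5 lies higher in the 3 Cat-Tg libraries than in the 3 WT libraries of either cell type, while Psmb10/Psmb7 spans 0.904 to 23.7 within WT CD8 post-tx.

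The other genes of the pathway followed the members in part. Over time 8.72% of all genes tested rose in Cat-Tg CD8, 13.2% in WT CD8, 16.2% in Cat-Tg CD4 and 14.7% in WT CD4. In Cat-Tg CD4 4987 of 17227 genes fell. A count near these shares says little about its list. Against the libraries labelled WT pre-tx, the constitutive catalytic subunits rose as well in WT CD8, 3 of 3, among them Psmb6 (log2 fold change 3.27, SE 0.42, adjusted p = 7e-05), and so did 9 of 11 other core subunits of the proteasome. In Cat-Tg CD8 0 of 3 and 1 of 11 rose. In Cat-Tg CD4 0 of 3 constitutive subunits rose, and of the 11 core subunits 1 rose and 4 fell, while in WT CD4 1 of 3 and 8 of 11 rose. Proteasome activators rose in 0 of 3 in Cat-Tg CD8, 2 of 3 in WT CD8 and 1 of 3 in each CD4 comparison of time. Of the 5 loading chaperones and trimming enzymes, 1 rose in each CD8 comparison, 3 in Cat-Tg CD4 and 4 in WT CD4, the lectin chaperone Calr rising in Cat-Tg CD8 from 187, 113 and 167 to 668, 547 and 547 CPM.

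Interferon gamma itself rose in all 4 comparisons of time. In Cat-Tg CD4 Ifng went from 2.63, 1.73 and 2.79 to 18.3, 23.4 and 29.6 CPM (log2 fold change 2.98, SE 0.42, adjusted p = 8.23e-05) and in WT CD4 to 72.5, 55.8 and 73.0 CPM, so that post-tx it was lower in Cat-Tg CD4 (−1.73, SE 0.39, adjusted p = 0.0112). Of the 5 listed genes for interferon and its receptors, 2 were higher and 1 lower there, beside 10.2% of all genes that passed. Over time 2 of the 5 rose and 2 fell in Cat-Tg CD8 and in WT CD4. In WT CD8 1 rose and 2 fell, and in Cat-Tg CD4 2 rose and 1 fell. Of the other class I heavy chains tested, 1 of 12 rose and 1 fell in Cat-Tg CD8 (8.72% of all genes rose), 3 of 12 rose in WT CD8 (13.2%), and 5 of 14 rose and 1 fell in both Cat-Tg CD4 (16.2%) and WT CD4 (14.7%). Among them, post-tx H2-Q2 was higher in Cat-Tg CD4, at 165, 115 and 117 CPM against 27.4, 19.2 and 29.0 CPM (log2 fold change 2.17, SE 0.48, adjusted p = 0.00974), and so was H2-Q4 (1.27, SE 0.38, adjusted p = 0.042); both share reads with other heavy chains, and none of the 12 tested passed in CD8 post-tx.

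The genes whose log2 CPM followed the mean of the 10 members most closely over the 24 libraries were Ptbp1 (Pearson r 0.981), Zyx, Jak3, Rac2, Mdh2, Arhgdia, Tmem109 and Eif4h (0.966), of 16744 protein-coding genes ranked. Their GC content was 52.9% to 60.9%, above the median gene, and the libraries share groups and depth.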

How the data were processed

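The authors deposited, for each of 24 libraries (SMART-Seq HT, a kit that keeps no strand, and Nextera XT), a Kallisto 0.46.2 table of estimated counts and TPM per transcript; mm9 and limma are named in the submitters' processing notes, and the release of the index is not given in the sources used here. Estimated counts were summed to gene symbols by GENCODE M21 identifiers (116374 of 117497 transcripts matched, 99.57% to 99.75% of counts) and rounded. TPM as deposited was used for levels between genes and for ratios. edgeR 4.0.16 quasi-likelihood fits with TMM scaling used genes above 1 CPM in at least 3 libraries: 15960 in the 12 CD8 libraries, 17227 in the 12 CD4 libraries, and 19076 in all 24 for comparisons between cell types. Genes passed at a Benjamini-Hochberg adjusted p of 0.05 over all genes tested, with no fold threshold, whereas the study's methods set one. Standard errors are the log2 fold change over the root of F. Alternatives included limma-voom (limma 3.58.1) and DESeq2 1.42.0. The fits were tested on simulated data. The members and gene lists were chosen with earlier results of these data known. Text names the 10 members in every comparison, at most 3 genes passing per other list by size of change, the coreceptors, and the 8 genes most correlated with the members. WT libraries were also used in earlier work of the same group. Motif letters were searched in RefSeq sequences (GRCm38.p6). The result of 1 listed gene is not reported here.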

Additional observations from a re-analysis of the deposited data

Results flagged for a closer look

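Between the genotypes, 4 class I genes changed differently over the transplantation by an interaction term in edgeR. In CD8 T cells the interaction was 2.54 for Nlrc5 (adjusted p = 0.00643), larger in Cat-Tg, and −1.77 for Psmb8 (adjusted p = 0.0422), larger in WT. In CD4 T cells it was 1.57 for Tapbp (adjusted p = 0.00745) and 1.46 for Psmb10 (adjusted p = 0.0401), both larger in Cat-Tg. With GC and length corrected the calls of Nlrc5 (0.68, adjusted p = 0.391), Tapbp (0.53, adjusted p = 0.107) and Psmb10 (0.69, adjusted p = 0.111) were lost. Over 21 alternatives the call was lost in 1 for Nlrc5, 1 for Tapbp, 14 for Psmb8 and 11 for Psmb10. Each value contains 3 libraries labelled WT pre-tx whose Cd4 and Cd8a levels went against their labels, and it could not be computed without them.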

How the results depend on the processing

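The 31 member results that passed kept their direction in all 557 values from the alternatives, and 144 of these missed the threshold; 6 results passed in every alternative. Of the 109 that did not pass, 73 changed sign in at least 1 alternative and 41 passed in at least 1. The causes were not tested. Library totals, the correction for GC and length, and the genotype by cell type interaction were added after seeing the data.

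The number of the 10 genes that passed depended on the fit as follows. For Cat-Tg against WT in CD8 pre-tx it went from 0 to 1 with library totals, with all 24 libraries and with only the groups compared, and to 2 with GC and length corrected. In CD8 post-tx it went from 1 to 0 with GC and length corrected, length-scaled TPM, without the libraries labelled WT pre-tx and with only the groups compared. In CD4 pre-tx it went from 1 to 0 with a 2-fold threshold or all 24 libraries, to 2 with DESeq2 size factors or GC and length corrected, to 5 with DESeq2, and to 6 with library totals, no filter or only the groups compared. For time, in Cat-Tg CD8 it went from 5 to 3 with DESeq2 size factors or GC and length corrected, to 8 with all 24 libraries or only the groups compared, and to 1 without the libraries labelled WT pre-tx. In WT CD8 it went from 6 to 3 with limma-voom or library totals and to 2 with only the groups compared. In Cat-Tg CD4 it went from 8 to 4 with a 2-fold threshold and to 5 with GC and length corrected, and in WT CD4 from 2 to 1 with a 2-fold threshold or all 24 libraries and to 5 with GC and length corrected. For CD8 against CD4, GC and length corrected gave 1 in Cat-Tg pre-tx, 2 in Cat-Tg post-tx and 1 in WT post-tx, where limma-voom, length-scaled TPM and the fit without the libraries labelled WT pre-tx gave 2 and only the groups compared gave 0. The interaction in CD8 gave 1 (Nlrc5) with library totals, no filter or length-scaled TPM, and 2 with GC and length corrected, B2m and Psmb8, without Nlrc5. In CD4 it gave 1 (Tapbp) with limma-voom or all 24 libraries, 1 (B2m, without Tapbp) with GC and length corrected and 4 with DESeq2. The genotype by cell type interaction gave 1 with DESeq2 or library totals.

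Leaving out 1 library at a time gave 0 to 1 for the genotype in CD8 post-tx, 0 to 6 in CD4 pre-tx (6 without WT replicate 3), 0 to 2 for time in Cat-Tg CD8, 3 to 9 in WT CD8, 6 to 8 in Cat-Tg CD4, 1 to 2 in WT CD4, 1 to 8 for CD8 against CD4 in WT post-tx, 1 to 2 for the interaction in CD8, 1 to 7 in CD4 (7 without WT pre-tx replicate 3) and 0 to 1 for the genotype by cell type interaction. The same numbers pair no samples by the labels, and same-numbered libraries correlated at −0.229 to 0.176; in no comparison did every pair exceed 0.1, and 0 to 3 of 3 libraries correlated best with their own number. With the replicate block the number passing went from 1 to 0 for the genotype in CD8 post-tx, from 1 to 2 in CD4 pre-tx, from 6 to 5 for time in WT CD8 (without H2-D1), from 2 to 3 in WT CD4 (with Tap1), from 4 to 2 for CD8 against CD4 in WT post-tx and from 2 to 1 for the interaction in CD8.

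B2m reversed with GC and length corrected for the genotype in CD4 pre-tx (0.52 to −1.40) and for the interaction in CD8 (−0.36 to 2.16, and 0.40 with library totals) and CD4 (−0.73 to 1.84). The ratio of Psmb8 to Psmb5 in CD4 pre-tx (0.00099) was −0.0018 with a pseudocount of 1 TPM and −0.083 to 0.15 with 1 library left out, and that in CD8 pre-tx (−0.032) −0.079 to 0.0088. The ratio of Psmb10 to Psmb7 in CD8 post-tx (0.13) ran from −1.2 without WT replicate 1 to 1.2 without WT replicate 2, all as log2 differences of Cat-Tg from WT.

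Scaling moved the median of all genes, most for time in WT CD8 (−0.23, −1.26 with library totals). The share of calls that were higher went, with library totals, from 50.1% to 16.8% (genotype, CD8 pre-tx), 65.8% to 84.3% (CD8 post-tx), 64.9% to 52.9% (CD4 pre-tx), 62.5% to 47.7% (time, Cat-Tg CD8), 55.8% to 17.3% (WT CD8), 55.4% to 84.3% (interaction, CD8), 24.1% to 12.4%, 24.9% to 11.6% and 45.5% to 11.6% (CD8 against CD4 in Cat-Tg pre-tx, Cat-Tg post-tx and WT post-tx) and 47.5% to 84.3% (genotype by cell type). With DESeq2 size factors it was 51.8% (genotype, CD4 pre-tx), 52.4% against 34.1% (interaction, CD4), 56.3% (CD8 against CD4, WT post-tx) and 28.3% (genotype by cell type).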
